A study of Mus musculus with 4 samples.

Results

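The set described here is 10 imprinted genes that act on fetal growth: Igf2, H19, Dlk1, Meg3, Peg3, Mest, Cdkn1c, Grb10, Plagl1 and Ndn. Their probes were found by matching each probe's transcript accession to the 10 symbols, and 8 genes were matched by 12 probes, out of 16995 genes and 41105 probes. H19 and Meg3, both long noncoding RNAs, had no matched probe and were not analysed here. All 12 probes lay well above local background on all 4 arrays, so no member was lost to a filter on dim values. RNA came from the lung, esophagus, stomach and intestine primordia of ICR mice, an outbred strain, at E11.5, with 1 array per organ and no treatment or mutation given in the labels. The stomach sample is labelled "gustric", and the extraction text of all 4 samples speaks of stomach. The labels do not say how many embryos gave each RNA. With 1 array per organ no difference could be tested, and every fold below is a description of 4 arrays.

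Imprinted genes are transcribed mainly from 1 parental copy, as directed by methylation marks set in the egg or sperm. Most paternally expressed members of this set, such as Igf2, Dlk1, Mest, Plagl1 and Peg3, promote fetal or placental growth, while the maternally expressed Cdkn1c and Grb10 restrain it. In mice Plagl1 encodes a zinc finger protein that regulates other imprinted genes, and Peg3 encodes another zinc finger protein. The arrays measure both parental copies together and say nothing on which copy was transcribed.

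The promoter region of Peg3 is shown because it was the only window of the members to hold the letters GGGGCCCC. These are the core of a sequence bound by PLAGL1, itself a member, and binding to the Peg3 window was not tested. Those of Grb10 are shown because its 3 probes gave opposite profiles. Each window is the 250 bases before an annotated start in RefSeq, build GRCm38.p6, written 5′ to 3′ on the strand of the gene. Capitals mark GGGGCCCC, the core of the sequence that PLAGL1 (ZAC1) binds.
Peg3, chr7:6730420-6730669, minus strand: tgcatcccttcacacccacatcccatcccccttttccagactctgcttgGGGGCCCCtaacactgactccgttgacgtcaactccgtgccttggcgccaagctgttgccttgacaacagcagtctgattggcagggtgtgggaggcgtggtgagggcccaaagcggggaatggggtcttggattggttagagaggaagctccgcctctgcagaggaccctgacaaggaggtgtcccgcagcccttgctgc
Grb10 start 1, chr11:12037421-12037670, minus strand: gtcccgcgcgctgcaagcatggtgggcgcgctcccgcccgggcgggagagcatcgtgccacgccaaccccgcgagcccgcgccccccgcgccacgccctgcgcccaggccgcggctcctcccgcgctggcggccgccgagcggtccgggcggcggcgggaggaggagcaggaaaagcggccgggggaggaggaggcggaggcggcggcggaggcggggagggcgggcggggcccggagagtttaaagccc
Grb10 start 2, chr11:12027972-12028221, minus strand: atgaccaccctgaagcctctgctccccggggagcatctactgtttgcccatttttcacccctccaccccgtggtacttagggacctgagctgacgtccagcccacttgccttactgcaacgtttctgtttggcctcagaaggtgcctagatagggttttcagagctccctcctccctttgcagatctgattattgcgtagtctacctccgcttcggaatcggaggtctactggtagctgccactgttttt
GGGGCCCC reads the same on both strands. It was present in 0.889% of the 32851 windows of all genes and in the Peg3 window alone among the 15 windows of 8 members. AAGATGG, the core bound by YY1, was searched on both strands and found in 4.49% of all windows and in none of these 15. TATAAA, the TATA box, was also searched on both strands, did not overlap the other motifs in these windows, and was found in 12.4% of all windows and in 1 window of Meg3. The first Grb10 window held 40 CpG dinucleotides and 81.2% GC, a CpG count reached by 1.31% of all windows, and the second held 8 CpG dinucleotides. The median was 8 CpG over the members' windows and 6 over all windows. Plagl1 itself had 1 window, chr10:13090582-13090831 on the plus strand, with 19 CpG dinucleotides and none of these motifs. Cdkn1c and H19 had no entry in the promoter table.

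The 4 arrays differed in brightness. The 75th percentile of signal was 32.0 on the lung array, 379 on that of esophagus, 320 on that of stomach and 991 on that of intestine, and 39.0% of spots in lung lay well above background, against 67.9% to 74.0% in the other organs. A level below is the log2 signal of a probe minus the 75th percentile of its array, so that 0 is the signal that 75% of probes stay under. The organ labels were set against defining genes. Nkx2-1, a lung and thyroid factor, had a level of 2.47 in lung and −1.104 in esophagus and did not clear background in stomach or intestine. Barx1, a stomach mesenchyme factor, was at 4.49 in stomach and 0.92 in esophagus. Cdx2, an intestinal factor, was at 1.90 in intestine and −4.31 in stomach. Sox2, a foregut factor, was at 1.09 in esophagus and 0.63 in stomach, so it set those 2 organs little apart. Markers of neighbouring tissues were unevenly spread. The 10 heart markers summed to 9.89, 134, 3.70 and 4.22 times the 75th percentile signal in lung, esophagus, stomach and intestine. The 7 measured liver markers summed to 27.1, 10.1, 3.37 and 62.9, and 7 red blood cell markers to 1392, 357, 503 and 347. In bulk RNA, fewer cells of a type and less RNA per cell cannot be told apart.

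**Figure D1:**
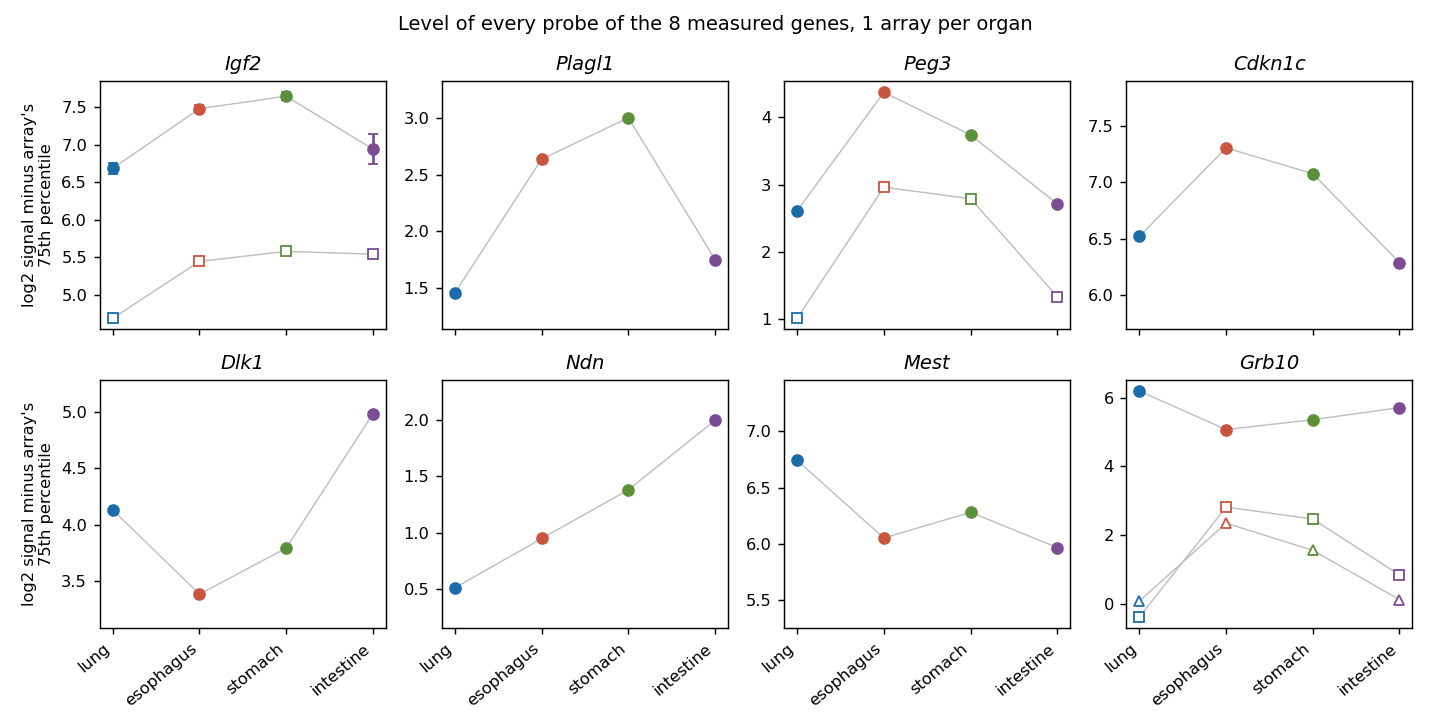
Level of each of the 12 probes (log2 signal minus the array's 75th percentile) in lung, esophagus, stomach and intestine, 1 array each, with a separate vertical axis per gene. Filled circles are the brightest probe of a gene and open symbols its other probes, and bars on the brightest Igf2 probe are the SD over 10 copies on the array. The brightest Grb10 probe is lowest in esophagus at 5.07, where the other Grb10 probes are highest at 2.82 and 2.35, while normexp places the brightest probe lowest in lung.

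Taking each gene at its brightest probe, the 8 members fell into different orders over the organs. Igf2 and Plagl1 were highest in stomach, Peg3 and Cdkn1c in esophagus, Dlk1 and Ndn in intestine, and Mest and Grb10 in lung. The organ of highest level was the same under all 6 scalings tried (the 75th percentile over all or over bright probes, the median, quantile normalization, normexp and the authors' table) for Plagl1, Peg3, Cdkn1c, Dlk1 and Ndn, and under 5 of the 6 for Igf2, Mest and Grb10. Quantile normalization placed Igf2 highest in esophagus. Background modelling by normexp, with an offset of 50 added to each signal, placed Mest and Grb10 highest in intestine. Of all 9497 genes well above background on the 4 arrays, 48.9% peaked in lung, 13.2% in esophagus and 18.3% in stomach, with 19.6% in intestine, beside 2 of the 8 members in each organ. Lung was the lowest organ for 4 members, esophagus for 2 and intestine for 2, while 20.2% of all genes were lowest in lung, 42.8% in esophagus and 14.3% in stomach, with 22.8% in intestine. The lowest organ was the same under all 6 scalings for Igf2, Plagl1 and Peg3, under 5 for Grb10, Dlk1 and Ndn, and under 4 for Cdkn1c and Mest. The members spanned 0.77 to 1.76 log2 units over the organs and 6 of 8 spanned at least 1, against 40.1% of all genes and a median span of 0.87.

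The members were counted where 2 organs differed by at least 2-fold. Between lung and esophagus 3 of 8 did so, beside 25.6% of the 10513 genes compared. Grb10 was higher in lung by its brightest probe, with the sign turned under normexp, as were 16.2% of genes, and Peg3 and Plagl1 were lower in lung, as were 9.42%. Between lung and stomach 2 of 8 did so, beside 23.9% of genes: Peg3 and Plagl1 were lower in lung, as were 9.87%, and no member was higher in lung, as were 14.0%. Between lung and intestine 1 of 8 did so, beside 20.6%: Ndn was lower in lung, as were 8.4%, and no member was higher in lung, as were 12.2%. Between esophagus and stomach no member reached 2-fold, beside 9.9% of genes, 5.63% higher and 4.27% lower in esophagus. Between esophagus and intestine 4 of 8 did so, beside 20.6%: Peg3 and Cdkn1c were higher in esophagus, as were 11.9%, and Dlk1 and Ndn were lower, as were 8.71%. Between stomach and intestine 3 of 8 did so, beside 12.4%: Peg3 and Plagl1 were higher in stomach, as were 7.52%, and Dlk1 was lower, as were 4.87%. No member reached 4-fold by its brightest probe under the reported scaling. The other Grb10 probes did, at 9.18-fold and 4.81-fold lower in lung than in esophagus. Under normexp the brightest probes of Igf2, Peg3, Cdkn1c, Plagl1 and Dlk1 passed 4-fold in pairs with lung. Peg3 between lung and esophagus also did so with bright probes (−2.06) and quantile normalization (−2.10). Dlk1 between esophagus and intestine did so under median centring (−2.10). The share of genes at 4-fold was counted under the reported scaling only. It was 3.99%, 4.39% and 4.03% between lung and each of esophagus, stomach and intestine. It was 2.26% between esophagus and stomach, 5.66% between esophagus and intestine and 2.7% between stomach and intestine.

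The median difference of the 8 members was −0.61 between lung and esophagus and −0.71 between lung and stomach, where the median of all genes was 0.28 and 0.12. It was −0.18 between lung and intestine and −0.26 between esophagus and stomach, where that of all genes was 0.14 and −0.16. It was 0.31 between esophagus and intestine and 0.51 between stomach and intestine, where that of all genes was −0.13 and 0.04. With 8 genes these medians describe the set and were not tested. Median centring shifts all genes of a pair alike, and the members' medians moved with the others there. Under normexp the members' median was −1.30, −1.52 and −1.41 between lung and each of esophagus, stomach and intestine, where that of all genes well above background on both arrays was −0.20, −0.30 and −0.42. Normexp also put it at −0.04 between esophagus and intestine, where that of those genes was −0.02, and at 0.07 between stomach and intestine, where theirs was 0.09. Quantile normalization put the stomach to intestine median at 0.09 and the esophagus to stomach median at 0.01, where theirs was −0.05 and −0.12.

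**Figure D2:**
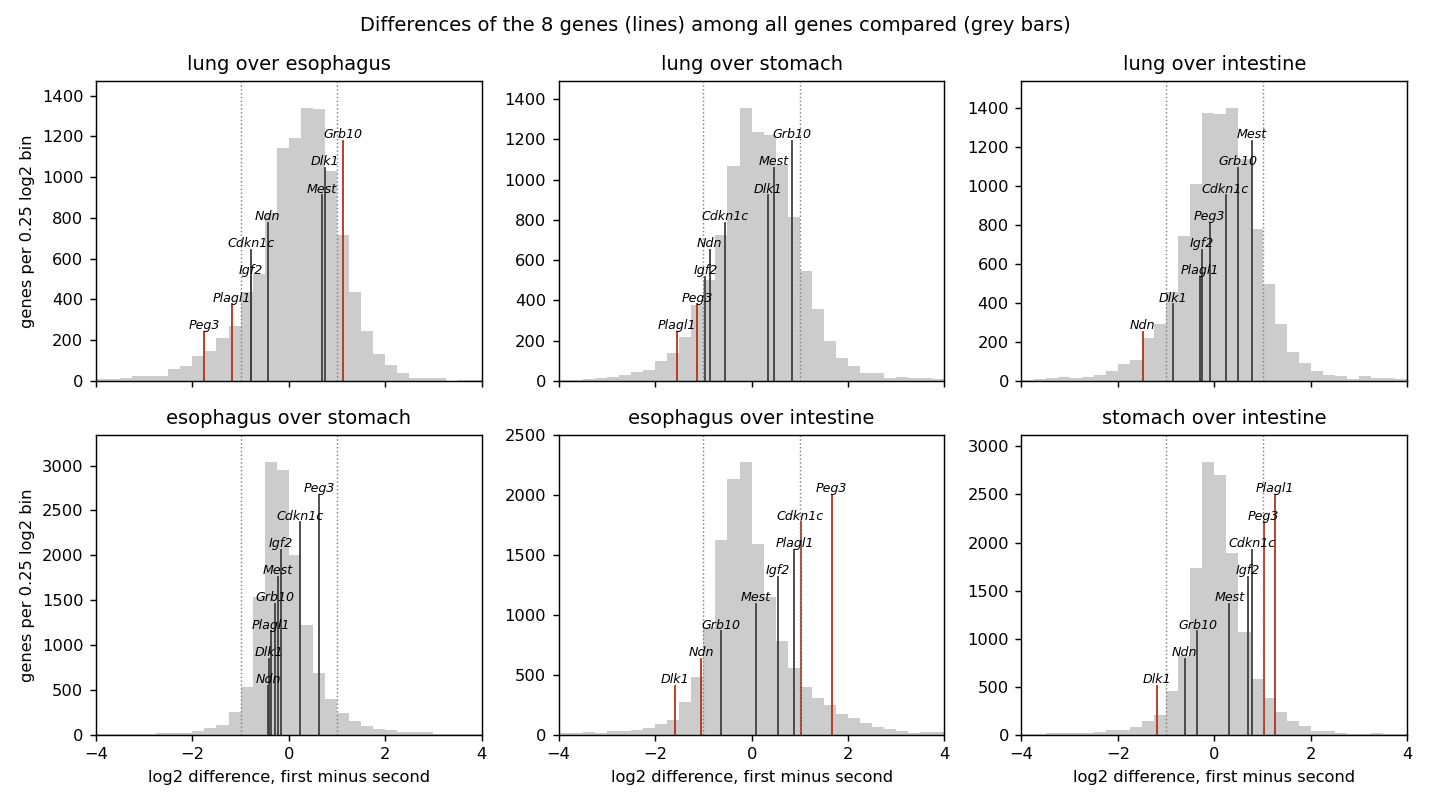
Log2 difference of each member at its brightest probe (lines, red where at least 2-fold) over the histogram of all genes compared (grey bars, genes per 0.25 log2 bin), for the 6 pairs of organs, first organ minus second. Dotted lines mark 2-fold. Peg3 and Plagl1 lie at −1.76 and −1.18 for lung over esophagus and Dlk1 and Peg3 at −1.60 and 1.66 for esophagus over intestine.

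Igf2 encodes the fetal insulin-like growth factor. Its brightest probe, spotted 10 times on each array, was at 6.68 ± 0.07 in lung, 7.48 ± 0.05 in esophagus and 7.64 ± 0.05 in stomach, with 6.94 ± 0.20 in intestine (SD over the 10 copies, which is error within an array only). The second Igf2 probe was at 4.69, 5.45, 5.58 and 5.54 in the same organs. Both probes were lowest in lung and highest in stomach, although quantile normalization placed the brightest highest in esophagus. They parted in intestine, where the second probe stood 0.04 below stomach and the brightest 0.70 below. No pair of organs reached 2-fold for either probe under the reported scaling. The brightest probe was 1.73-fold lower in lung than in esophagus and 1.94-fold lower in lung than in stomach, while the SD, over genes, of the gap in difference between a gene's 2 brightest probes (the SD between probes) was 1.202 and 1.104 log2 units for these pairs. Both Igf2 differences were past 2-fold under 3 of the 6 scalings, at −1.0975 and −1.16 with bright probes, −1.17 and −1.03 under quantile normalization, and −2.10 and −2.23 under normexp.

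The genes that carry, bind or receive IGF2 were given from a list of 21, of which 20 had a probe. Igf1, the related growth factor, was at 1.49, 3.78, 3.27 and 1.65 in lung, esophagus, stomach and intestine. It was 4.88-fold and 3.43-fold lower in lung than in esophagus and stomach, and 4.37-fold and 3.08-fold higher in esophagus and stomach than in intestine, and all 4 differences stayed past 2-fold under the 6 scalings. Pappa, a protease that cleaves IGF-binding proteins, was at −0.25, 0.70 and 0.11 in lung, esophagus and stomach and at −4.28 in intestine. It was thus 16.3-fold, 31.5-fold and 20.9-fold higher in those organs than in intestine, the widest span of the 20 genes. Igfbp5, an IGF-binding protein, was at 5.66, 6.05, 4.50 and 3.98 in lung, esophagus, stomach and intestine, and 4.20-fold higher in esophagus than in intestine. Igfbp4, another binding protein, went the other way, at 0.91 in esophagus and 0.35 in stomach against 2.09 in intestine, with 1.32 in lung. Htra1, a secreted protease, was at −1.37, 0.28, −1.33 and 1.74 over the same 4 organs.

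Among the receptors, Igf1r, the signalling receptor for IGF1 and IGF2, was at 2.03, 1.74, 1.48 and 1.92 in lung, esophagus, stomach and intestine. Igf2r, an imprinted receptor that removes IGF2, was at 4.95, 4.21, 3.52 and 3.61. Its 2.70-fold excess in lung over stomach was 0.13 on the log2 scale under normexp, and its 2.55-fold excess in lung over intestine turned to −0.15. Insr, the insulin receptor, was not well above background in lung and was 2.95-fold higher in esophagus than in intestine, short of 2-fold at 0.82 on the log2 scale under quantile normalization. Igf2bp3, an RNA-binding protein that binds Igf2 mRNA, was at 3.42, 2.02, 1.79 and 2.30 in the 4 organs, and its difference of 1.12 between lung and intestine turned to −0.15 under normexp. Of the 19 list genes compared between esophagus and intestine, 7 were at least 2-fold higher and 3 at least 2-fold lower in esophagus, where 11.9% and 8.71% of all genes were. Of the 15 compared between lung and esophagus, 1 was higher and 3 were lower in lung, where 16.2% and 9.42% of all genes were. Lung over stomach gave 3 higher and 3 lower of 15, beside 14.0% and 9.87%. Lung over intestine gave 4 and 3 of 14, beside 12.2% and 8.4%. Esophagus over stomach gave 3 and 1 of 19, beside 5.63% and 4.27%. Stomach over intestine gave 4 and 2 of 19, beside 7.52% and 4.87%.

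Plagl1 was at 1.46 in lung, 2.64 in esophagus and 3.01 in stomach, with 1.75 in intestine. The order stomach, esophagus, intestine, lung held under all 6 scalings. The level was 2.27-fold lower in lung than in esophagus, 2.93-fold lower in lung than in stomach, and 2.39-fold higher in stomach than in intestine. The lung to stomach difference ranged from −2.08 to −1.16 over the scalings. Median centring took the lung to esophagus difference to −0.60 and the stomach to intestine difference to 0.95, both short of 2-fold. Plagl1 had 1 probe, so no second probe could be set beside it.

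Peg3 had a brightest probe at 2.61, 4.37, 3.74 and 2.71 in lung, esophagus, stomach and intestine. Its other probe was at 1.01, 2.96, 2.79 and 1.34. Both probes gave the order esophagus, stomach, intestine, lung, and the brightest did so under all 6 scalings. The brightest probe was 3.38-fold lower in lung than in esophagus and 3.16-fold higher in esophagus than in intestine, and the second probe 3.86-fold and 3.08-fold. These 2 differences stayed past 2-fold under the 6 scalings, between −2.71 and −1.17 for lung over esophagus and between 1.16 and 1.78 for esophagus over intestine. The brightest probe was also 2.18-fold lower in lung than in stomach and 2.04-fold higher in stomach than in intestine, and median centring brought these to −0.74 and 0.72. The step from stomach to intestine exceeded the SD between probes of 0.75 on both Peg3 probes, and the step from esophagus to stomach, 0.63 and 0.17 on the 2 probes, exceeded its SD of 0.51 on the brightest. All 10 heart markers were well above background in esophagus, 5 in lung, 9 in stomach and 9 in intestine. Their sum was 134 in esophagus and 3.70 in stomach, the organ with the second highest Peg3 level, and the part of heart RNA in the esophagus value was not tested.

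Cdkn1c encodes p57, an inhibitor of cyclin-dependent kinases that stops cells in G1. It was at 6.52 in lung, 7.30 in esophagus and 7.08 in stomach, with 6.29 in intestine, the order of Peg3 apart from lung and intestine, which changed places for Cdkn1c under quantile normalization and normexp. The level was 2.02-fold higher in esophagus than in intestine, its 1 difference at 2-fold, which was 0.51 under median centring, 0.55 under normexp and 0.96 under quantile normalization. The reported difference of −0.78 between lung and esophagus was past 2-fold under 3 of the 6 scalings, at −1.09 with bright probes, −1.13 under quantile normalization and −2.11 under normexp. Normexp also took that between lung and stomach to −1.89 and that between lung and intestine, 0.23 as reported, to −1.56. The other genes of G1 control came from a list of 17, of which 16 had a probe. Cdkn1b, which encodes the related inhibitor p27, was at −1.36, 0.58, 0.37 and −0.36 in lung, esophagus, stomach and intestine. It was 3.84-fold and 3.32-fold lower in lung than in esophagus and stomach, but short of 2-fold at −0.77 and −0.60 under normexp. Rbl1, which encodes the RB-related protein p107, ran against them, at 1.27 in lung and −0.69 in esophagus, with −0.36 in stomach and 0.85 in intestine. Of the 15 list genes compared between esophagus and intestine, Cdk6 and Ccne2 were at least 2-fold higher and Rbl1 at least 2-fold lower in esophagus, where 11.9% and 8.71% of all genes were.

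Grb10 encodes an adaptor protein that dampens signalling from the insulin and IGF1 receptors. Its brightest probe, A_52_P115787, was at 6.19 in lung, 5.07 in esophagus and 5.36 in stomach, with 5.71 in intestine. The second probe, A_51_P187151, was at −0.38, 2.82, 2.47 and 0.84, and the remaining one, A_52_P40363, at 0.08, 2.35, 1.56 and 0.13. The brightest probe was highest in lung and lowest in esophagus, while the other 2 were highest in esophagus and lowest in lung. All 3 probes carry the same transcript accession. Between lung and esophagus the brightest probe was 2.17-fold higher in lung, and the other 2 were 9.18-fold and 4.81-fold lower in lung. The gap of −4.32 between the 2 brightest probes was matched or passed by 0.159% of the 2509 genes with 2 such probes, whose median gap was −0.20. For esophagus over intestine the gap was 2.61, reached by 2.62% of 4699 genes. The scanner software's own error on these signals was 0.14 to 0.17 log2 units. The direction of Grb10 between organs therefore depends on the probe. For the brightest probe between lung and esophagus the direction also depends on the setting, since normexp with its offset of 50 gave −0.30. The probes' positions in the gene are not given in the sources used here, so they could not be tied to either of the starts printed above.

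**Figure D3:**
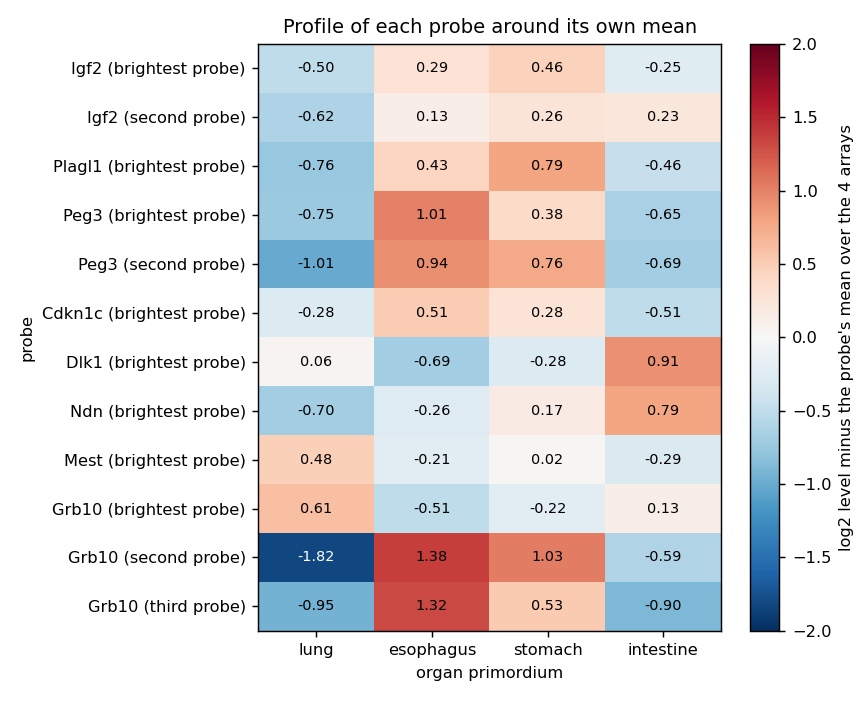
Level of each probe minus its own mean over the 4 arrays (colour and printed value, log2 units), organs in columns and probes in rows. Both Peg3 probes and the 2 dimmer Grb10 probes are above their mean in esophagus and stomach and below it in lung and intestine, and the brightest Grb10 probe runs the other way in esophagus (−0.51) and lung (0.61).

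Dlk1 encodes a membrane protein of the Notch ligand family that keeps progenitor cells undifferentiated. It was at 4.13, 3.39, 3.79 and 4.98 in lung, esophagus, stomach and intestine. Intestine stood above the other organs under all 6 scalings, and lung, second here, was lowest under normexp. The level was 3.02-fold lower in esophagus than in intestine and 2.28-fold lower in stomach than in intestine. Over the scalings these differences ran from −2.10 to −1.49 and from −1.49 to −1.19. Liver markers, of which 4, 6, 5 and 7 of 7 were well above background in lung, esophagus, stomach and intestine, had their highest sum in intestine too, at 62.9. Alb and Afp, the albumin and fetoprotein genes, were at 2.98 and 5.63 in intestine and at −2.39 and 1.51 in stomach. The 4 pancreas markers had their highest sum in intestine as well, with 0.21, 0.12, 0.23 and 2.50 in lung, esophagus, stomach and intestine. Well above background in these organs were 0, 1, 2 and 3 of the 4. The intestine sum was mostly that of Cpa1, a digestive enzyme gene of the pancreas. Cpa1 was at 1.24 in intestine and at −2.85 or lower in the other organs. Ptf1a cleared background in intestine alone, at −3.69. Pdx1 was higher in stomach, at −3.65, than in intestine, at −4.08, and Neurod1 was not well above background on any array. The part of liver or pancreas RNA in the Dlk1 values was not tested.

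Ndn encodes necdin, a MAGE family protein of postmitotic neurons that restrains the cell cycle. It was at 0.51 in lung, 0.95 in esophagus and 1.38 in stomach, with 1.995 in intestine. The organs rank from lung to intestine without a reversal, apart from lung and esophagus under median centring, and no step between neighbours exceeded the SD between probes for its pair. The whole span did: Ndn was 2.79-fold lower in lung than in intestine, with −1.91 to −1.40 over the scalings. It was also 2.07-fold lower in esophagus than in intestine, and −0.95 when scaled on bright probes. Neural markers summed to 1.61, 4.32, 12.2 and 9.11 in lung, esophagus, stomach and intestine, with 2, 7, 7 and 7 of 7 well above background, and their part in the Ndn values was not tested.

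Mest, also called Peg1, encodes an enzyme-like protein of the alpha/beta hydrolase fold and is widely transcribed in embryonic mesoderm. It was at 6.74, 6.05, 6.28 and 5.97 in lung, esophagus, stomach and intestine. No difference reached 2-fold under the reported scaling, and with 0.77 log2 units Mest had the smallest span of the 8 members. The excess in lung, 0.69, 0.46 and 0.77 log2 units over esophagus, stomach and intestine, turned to −0.59, −0.83 and −1.03 under normexp, while median centring took that over esophagus past 2-fold, to 1.27. The 8 mesenchyme markers, which include collagen genes and Pdgfra, summed to 274 in lung, 333 in esophagus and 222 in stomach, with 174 in intestine. They did not share an order. Vim, Col3a1 and Pdgfrb were highest in lung, as Mest was, Col1a1, Col1a2 and Twist1 in esophagus, and Foxf1 and Pdgfra in stomach. The part of mesenchyme in the Mest values was not tested.

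**Figure D4:**
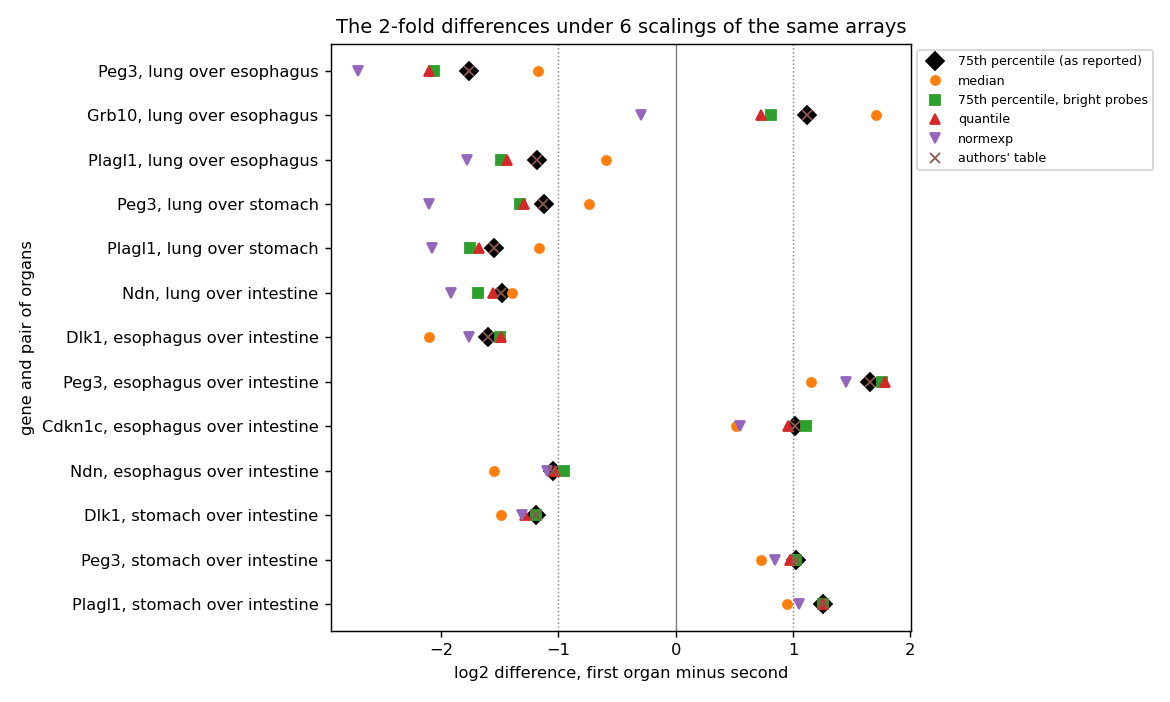
The 13 member differences of at least 2-fold (rows, log2, first organ minus second) under the reported scaling (black diamonds) and 5 others. Dotted lines mark 2-fold and the solid line marks no difference. Grb10 for lung over esophagus spans −0.30 to 1.71 and is the only row that crosses 0.

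The profiles of the members were set against each other by the Euclidean distance between levels, each centred on its gene's mean over the 4 arrays. Igf2, Plagl1, Peg3 and Cdkn1c lay within 0.45 to 0.86 log2 units of each other, with Igf2 and Cdkn1c closest. Mest and the brightest Grb10 probe were 0.59 apart. Dlk1 was about as far from that Grb10 probe, at 0.97, as from Ndn, at 0.98. The largest distance, 2.53, lay between Dlk1 and Peg3. These distances describe 4 arrays that all members share, and the grouping was made after the values were seen. Of 9496 other genes, 101 lay within 0.5 of Peg3, 112 of Plagl1, 123 of Dlk1, 241 of Ndn, 432 of Cdkn1c and 2119 of Grb10, taken at its brightest probe alone. The other 2 Grb10 probes, which ran the opposite way between lung and esophagus, were not used for these distances. The nearest to Peg3 were Cnnm3, Pdzd8 and Pds5a, at distances of 0.08 to 0.11. The nearest to Plagl1 were Rabl6, Kcne1l and H4c1, at 0.17 to 0.21, and the nearest to Dlk1 were Fhit, Crtac1 and Bag2, at 0.15 to 0.19. Vamp5, Mmp17 and 3110082I17Rik came nearest to Ndn, Zfp946, Polr3g and Atp8a1 to Cdkn1c, and Aaas, Ankfy1 and Ndufaf1 to Grb10.

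Imprinted genes often lie in clusters, so the members were set beside imprinted genes of the same chromosome, chosen after their values were seen. Dio3, a thyroid hormone deiodinase gene at the far end of the Dlk1 cluster, was at −2.40, −1.23 and 0.89 in esophagus, stomach and intestine and was not well above background in lung. It was at least 9.70-fold lower in lung, 9.78-fold lower in esophagus and 4.37-fold lower in stomach than in intestine, the organ where Dlk1 was highest. Zim1, a zinc finger gene next to Peg3, was at −1.44, −2.83 and −3.87 in esophagus, stomach and intestine and was not well above background in lung. It was 2.62-fold higher in esophagus than in stomach and 5.37-fold higher in esophagus than in intestine, the order seen for Peg3, and the first of these was 0.72 on the log2 scale under normexp. Usp29, the other measured gene of the Peg3 cluster, did not share that order, at −1.84, −1.46 and −2.08 in esophagus, stomach and intestine and not well above background in lung. Copg2, which lies beside Mest, was at 2.44, 1.93, 1.87 and 1.57 in lung, esophagus, stomach and intestine. Snrpn, in the same cluster as Ndn, was at 1.20, −0.18, −0.07 and 0.15 and so was 2.07-fold higher in lung than in intestine, opposite to Ndn, but short of 2-fold at 0.32 on the log2 scale under normexp. Peg12, of that cluster too, was also highest in lung, at 2.90, against 1.71 to 2.02 in the other organs, but its differences of lung over stomach and over intestine were −0.17 and −0.12 under normexp. Mkrn3, another gene of the Ndn cluster, was highest in intestine as Ndn was, except for stomach under normexp, at −2.46, −2.08 and −2.03 in esophagus, stomach and intestine, and was not well above background in lung. Ddc, next to Grb10, was at 1.82, 1.20, 1.70 and 1.15 in lung, esophagus, stomach and intestine. In the cluster of Igf2 and Cdkn1c, Cd81 was at 6.33, 5.58, 5.35 and 5.30 and Ins2, an insulin gene, at −0.99, −1.54, −1.17 and −1.82. Both were highest in lung, where Igf2 was lowest, except that Cd81 was lowest in lung under normexp and Ins2 was −0.03 for lung over stomach with bright probes. The other measured genes of this cluster differed from these 2. Slc22a18 and Ascl2 were highest in stomach, as Igf2 was, at −0.85 and −3.08. Phlda2 and Tspan32 were highest in intestine, at −0.39 and −3.04. Kcnq1 was at −2.47, −2.43 and −2.69 in esophagus, stomach and intestine, and Tnfrsf23 cleared background in esophagus alone. Phlda2 alone of these others was well above background in lung.

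**Figure D5:**
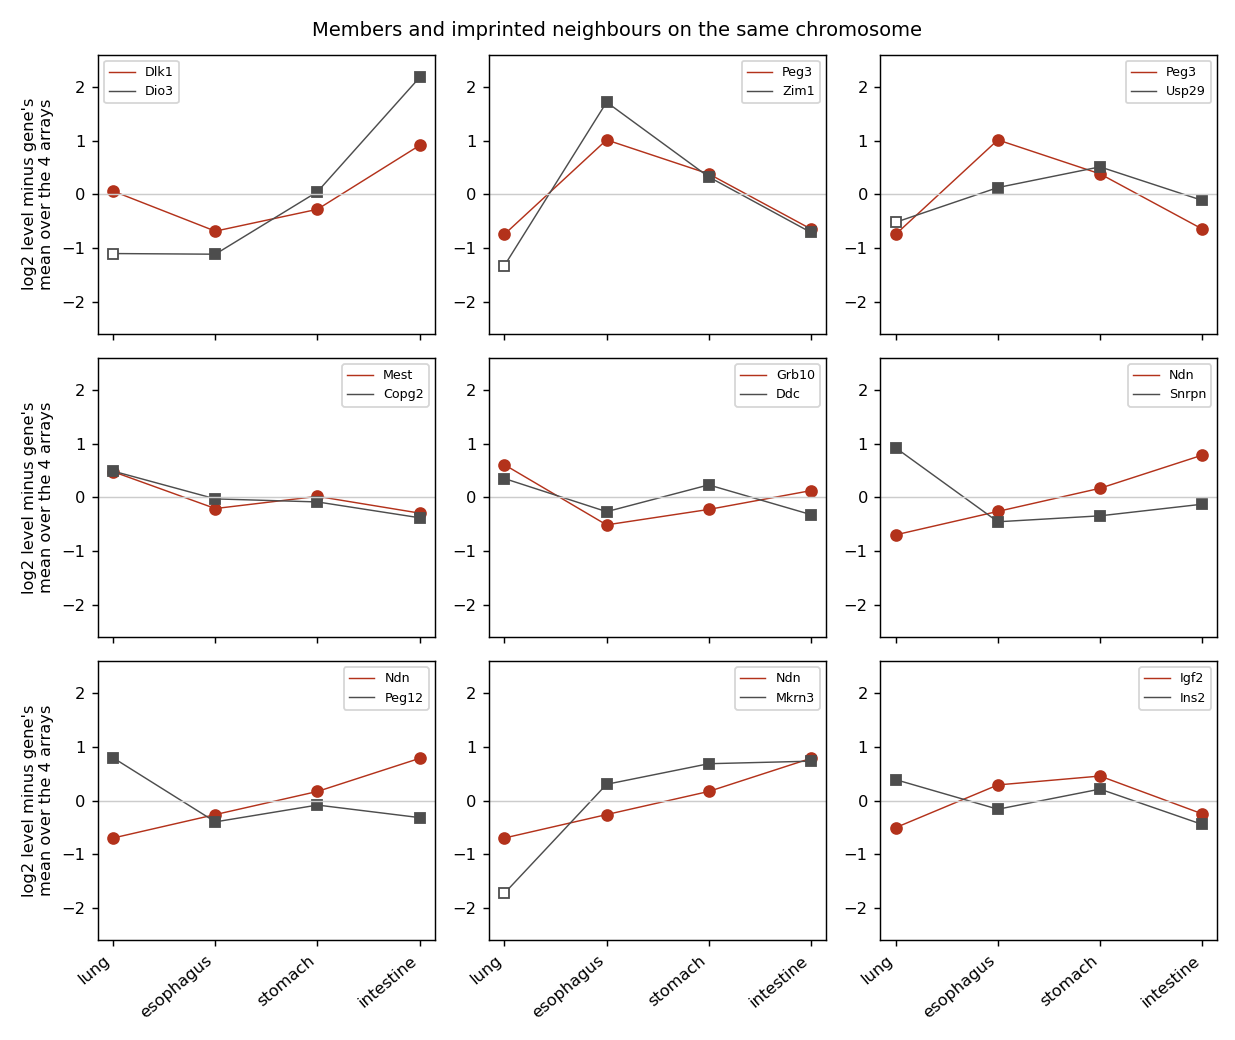
Log2 level minus the gene's own mean over the 4 arrays for a member (red circles) and an imprinted gene of the same chromosome (grey squares, open where not well above background), by organ. Dlk1 and Dio3 are both highest in intestine, Peg3 and Zim1 both highest in esophagus, while Usp29 is highest in stomach. Ndn and Mkrn3 are highest in intestine and Snrpn and Peg12 in lung, which for Mkrn3 and Peg12 did not hold under normexp.

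Across a wider list of 50 other imprinted genes, 39 had a probe, and Igf2r is on this list and on that of the IGF genes. Between lung and esophagus 5 of the 26 compared were at least 2-fold higher and 1 was at least 2-fold lower in lung, where 16.2% and 9.42% of all genes were. The 5 were Snrpn, Slc38a4, Asb4, Peg12 and Commd1, and the 1 was Dcn. Under normexp Commd1 turned to −0.15 and Asb4 fell to 0.22, while Dcn stayed past 2-fold under all 6 scalings. Between esophagus and intestine 3 of 35 were higher and 6 were lower in esophagus, where 11.9% and 8.71% of all genes were. The 6 include Gnas, Nnat and Phlda2. Dcn, which encodes the collagen-binding protein decorin, had the widest span of those well above background on all 4 arrays, at 1.63, 5.19, 3.77 and 3.86 in lung, esophagus, stomach and intestine, and was 11.8-fold lower in lung than in esophagus. Gnas, the gene of a stimulatory G protein subunit, was at 1.03, 1.85, 1.91 and 3.41 and was 2.95-fold lower in esophagus than in intestine. Nnat, which encodes neuronatin, was at 4.66, 3.70, 3.50 and 5.17, and Asb4 at 4.28, 2.86, 2.44 and 3.78. Slc38a4, an amino acid transporter gene, was at 3.75 in lung and between 2.06 and 2.19 in the other 3 organs, and its excess in lung of 1.69 over stomach was 0.49 under normexp. Phlda2, which restrains placental growth, was at −1.18, −2.10, −1.15 and −0.39.

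Genes of the same families as the members came from a list of 14, of which 12 had a probe. Beside Igf1 and Cdkn1b they include Grb7 and Grb14, adaptors related to Grb10. Grb7 was at 2.25, 1.02, 1.56 and 1.32 in lung, esophagus, stomach and intestine and Grb14 at 0.50, −0.10, −0.63 and −0.52. Grb7 was 2.34-fold higher in lung than in esophagus, and 0.23 on the log2 scale under normexp. Maged1 and Nsmce3, MAGE family genes as Ndn is, were at 5.91, 4.96, 5.08 and 4.82 and at 0.41, 0.75, 0.59 and 1.27.

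The proteins that keep imprints through cell division were read from a list of 13 genes, of which 9 had a probe. Zfp445, a zinc finger protein that binds imprinting control regions, was at 0.31 in lung, 2.22 in esophagus and 2.13 in stomach, with 1.03 in intestine, and was 3.76-fold and 3.54-fold lower in lung than in esophagus and stomach under the reported scaling and past 2-fold under the others. Dnmt1, the maintenance methyltransferase, was at 2.03, 1.11, 1.54 and 1.39, and its partner Uhrf1 at 4.70, 3.87, 4.18 and 3.86. Trim28, the corepressor that zinc finger proteins recruit, was at 4.61, 4.55, 5.12 and 5.12. Dnmt3a and Dnmt3b, which set new methylation, were at 3.34, 4.29, 4.39 and 3.63 and at 0.13, −0.90, −0.28 and −0.09. Between lung and esophagus Dnmt3b was at least 2-fold higher and Zfp445 and Tet2 at least 2-fold lower in lung, out of 7 compared, beside 25.6% of all genes. The Dnmt3b difference, 1.03 as reported, was past 2-fold under 4 of the 6 scalings and 0.73 with bright probes. Tet2 was not well above background in lung, so its fold there is a lower bound. Between lung and stomach Zfp445 and Dnmt3a were lower in lung, out of 7, beside 23.9% of all genes. Between lung and intestine none of 6 reached 2-fold, where 20.6% of all genes did. In each of the other pairs 8 were compared. Tet2 was higher in esophagus than in stomach, beside 9.9% of all genes at 2-fold in either direction. Zfp445 and Tet2 were higher in esophagus than in intestine, beside 20.6%, and Zfp445 was higher in stomach than in intestine, beside 12.4%.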

How the data were processed

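Total RNA of 4 organ primordia was labelled with Cy3 and hybridised in 1 colour, per the labels' protocols, with 1 array per organ. Per the file headers, the arrays were quantified by Agilent Feature Extraction 10.5.1.1 (protocol GE1_105_Dec08) on array design 014868, which refers to build mm8. The deposited scanner intensity values are background-subtracted within an array, per the file headers, and are not scaled between arrays. The authors' deposited series table holds log2 values and matched log2 processed signal minus the 75th percentile (r of 0.99996 to 0.99998, with column medians of −3.56 in lung, −2.97 in esophagus and −3.17 in stomach, with −3.47 in intestine). Nothing but this match tells its scale, centring or direction.

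A level is the log2 of the processed signal after subtracting the 75th percentile of log2 signal on that array, without controls. Repeated spots of a probe were averaged unless flagged, and 69 probes with no usable spot on some array were left out. No spot was saturated. Probe accessions were matched to symbols of RefSeq assembly GRCm38.p6, giving 24338 probes 1 symbol. A gene is its brightest probe by mean signal. A probe not well above background on an array was set to that array's lowest level well above background unless its own was higher (−2.39 in lung, −5.75 in esophagus, −5.78 in stomach, −6.92 in intestine), so that its fold is a lower bound, and none was given where both arrays were below.

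Differences of at least 2-fold are sizes, with no test. The SD, over genes, of the gap in difference between a gene's 2 brightest probes served as tolerance for each pair (called the SD between probes). The members and gene lists were chosen with earlier results of these data known. The genes named were the members, from each list up to 6 genes with the widest span among those well above background on all 4 arrays plus Igf2r, Igf1r and Insr, and the 3 nearest profiles of each member spanning at least 1 log2 unit. Cdk6 and the chromosome neighbours were named after their values were seen. The number of arrays limits the precision. Python 3.11.15 (numpy 2.4.6, pandas 2.3.3, matplotlib 3.10.9) and R 4.3.3 with limma 3.58.1 were used, and the counting was tested on simulated data. Alternatives were other centrings, quantile normalization, normexp with an offset of 50, the authors' table, other probes of a gene, filters on dim probes and a 4-fold threshold.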

Additional observations from a re-analysis of the deposited data

How the results depend on the processing

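Of the 48 member differences (8 genes in 6 pairs), all 48 kept their value within the SD between probes under median centring, the 75th percentile over bright probes, quantile normalization, the authors' table and both filters on dim probes. Of these settings only quantile normalization could have come out otherwise. The filters cannot change members well above background on all 4 arrays, and the authors' table repeats the reported levels. Both centrings shift all genes of a pair alike, by less than its SD between probes. Under normexp 33 stayed within it and 15 did not, and with all probes averaged, or the dimmest probe, 43 did and 5 did not. Signs turned in 11 under normexp (5 of Mest, 3 of Grb10, 2 of Dlk1 and 1 of Cdkn1c), in 6 with all probes averaged (all Grb10), in 7 with the dimmest probe (6 of Grb10, 1 of Igf2), in 3 under quantile normalization and in 2 under median centring. Among differences of at least 2-fold as reported, Grb10 for lung over esophagus alone turned: it was 1.12 as reported, −0.30 under normexp, −1.45 with all probes averaged and −2.27 for the dimmest probe. The count of members at 2-fold between lung and stomach was 2 as reported, 4 with the 75th percentile over bright probes and 5 under normexp. Of all genes compared, 23.9%, 22.7% and 28.1% were at 2-fold in these settings. Between lung and intestine the count was 1 as reported, 2 with bright probes, 2 under quantile normalization and 7 under normexp. The shares of all genes there were 20.6%, 19.7%, 17.5% and 33.1%. Between stomach and intestine the count was 3 as reported and 1 under median centring, beside 12.4% and 13.2% of all genes. At 4-fold the count, taken by the brightest probe under the reported scaling only, was 0 in every pair. The split between lung and esophagus, 1 higher and 2 lower in lung as reported, was 3 and 1 under median centring. It was 0 and 4 with bright probes, quantile normalization or normexp. All genes at 2-fold made up 25.6% as reported and 49.5% under median centring. They made up 22.3% with bright probes, 23.6% under quantile normalization and 23.0% under normexp. Between lung and stomach the split was 0 and 2 as reported and 1 and 1 under median centring, beside 23.9% and 33.0% of all genes. Between esophagus and intestine the split was 2 and 2 as reported and 1 and 3 under median centring. It was 2 and 1 with bright probes and 1 and 2 under normexp. The shares of all genes in these settings were 20.6%, 33.2%, 20.5% and 17.8%. Between stomach and intestine the split was 2 and 1 as reported, 1 and 1 with normexp or quantile normalization, and 0 and 1 with median centring. Of all genes, 12.4% were at 2-fold as reported, 15.2% under normexp, 10.3% under quantile normalization and 13.2% under median centring. The cause was not tested. Normexp moved the median of all genes by −0.57, −0.52 and −0.64 for lung over esophagus, stomach and intestine. Bright probes moved it by −0.30, −0.20 and −0.21 for these pairs. Median centring moved it by 0.59 and 0.39 for the first 2 of them and by −0.20, −0.50 and −0.30 for esophagus over stomach, esophagus over intestine and stomach over intestine. Quantile normalization moved it by −0.15 and −0.13 for lung over esophagus and over intestine. Low signal limits the lung array most. The offset of 50 added under normexp exceeds the 75th percentile of signal on the lung array, 32.0, but not that on the other arrays, 320 to 991. How much of the normexp changes came from the offset was not tested. Normexp used the median spot signal, chosen after seeing the data, since the planned mean signal is not in the columns analysed here, and that planned setting was not run. The dimmest probe was also added after seeing the data. No paired analysis was possible because each organ has 1 array.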
